A study of Mus musculus with 18 samples.

Results

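Krüppel-like factors (KLFs) were followed here as 10 transcripts, *Klf2*, *Klf3*, *Klf4*, *Klf5*, *Klf6*, *Klf7*, *Klf10*, *Klf11*, *Klf13* and *Klf15*, in bulk RNA-seq of single mouse aortae with an edited *Tspan2* promoter. They were taken by symbol from the list of members, and all 10 were found among the 55453 gene symbols of each count table, where 17 symbols in all name a *Klf* gene. The question asked of each table was whether a substitution in the CArG box of the *Tspan2* promoter, a site bound by serum response factor, was accompanied by another level of these factors in the vessel. In the HDR mice, Cas9 with a single guide RNA and a single-stranded repair template had substituted adjacent bases of the box (homozygotes called sg/sg). The PE2 mice came from prime editing, in which a nickase form of Cas9 joined to a reverse transcriptase had exchanged a single base of the same box (homozygotes called peg/peg). The HDR groups were 5 wild-type and 5 sg/sg aortae from mice of 12 weeks labelled C57BL/6, with 3 females and 2 males of each genotype. The PE2 groups were 4 wild-type and 4 peg/peg aortae from mice of 8 weeks labelled FVB/N/B6(Cg)-Tyrc-2J/J, all females except wild-type replicate 4. Wild type here means an unedited *Tspan2* promoter, and each edited group descends from its own editing experiment. Age, strain label and batch differ between the experiments, so levels were compared within each of them. The HDR libraries are named by the numbers of their columns, 2 to 6, which do not say which labelled mouse a column holds.

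KLFs are zinc finger transcription factors that bind GC-rich and CACCC sequences in promoters. In vessels, KLF2 and KLF4 are induced in endothelium by laminar flow through the MEK5, ERK5 and MEF2 cascade and drive anti-inflammatory and anticoagulant genes. In smooth muscle, KLF4 and KLF5 oppose the contractile programme that serum response factor and myocardin sustain from CArG boxes. Other members respond to transforming growth factor β or glucocorticoids, or repress transcription by recruiting CtBP or Sin3A.

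The total was 17290992 to 24880385 counts in an HDR library and 38820265 to 44895615 in a PE2 library. *Tspan2* was lower in every edited library, at 16.0 to 36.6 CPM (counts scaled to library size, as edgeR gives them) in sg/sg against 112 to 265 in HDR wild type, and at 11.9 to 25.5 in peg/peg against 186 to 284 in PE2 wild type. The smooth muscle markers (8 genes) summed to at least 15982 CPM and the endothelial markers (10 genes) to at least 939 in each of the 18 libraries. The library labelled peg/peg replicate 3 went against its tissue label. It held 1528 CPM of 12 urothelial genes, such as the uroplakins, against 8.12 to 66.5 in the other 7 PE2 libraries. It held 8942 CPM of *Actg2*, the enteric smooth muscle actin, against 161 to 456, and 55.7 CPM of *Hoxa13*, a gene of the caudal body, against 0.0221 to 0.331. Its level of *Eln*, which encodes elastin, was 622 CPM against 11617 to 34850 in the others. It had the lowest endothelial sum of the PE2 libraries, 939 CPM against 1710 to 4052. The HDR libraries wild-type 3 and sg/sg 4 held 166 and 129 CPM of the urothelial genes, against 1.83 to 52.5 in the other 8. Of these 2, only wild-type 3 was also high in *Actg2*, at 1109 CPM against 88.1 to 192 in the rest of HDR (93.7 in sg/sg 4). Its *Hoxa13* level was 9.36 CPM, against 0.0532 to 1.07 in the rest of HDR, with sg/sg 4 at 1.07. Each PE2 result is therefore given with and without peg/peg replicate 3. In such bulk samples, fewer cells of a type and less RNA per cell cannot be told apart.

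All 10 members passed the filter on low counts in both experiments. Among the 10, *Klf6* was the most abundant per length and *Klf5* the least. *Klf9*, which is not among them, stood near *Klf6*, at 57.0 CPM per kb of exon in HDR wild type and 30.6 in PE2 wild type. On the scale of CPM per kb of exon, in HDR wild type, *Klf6* stood at 55.6 ± 12.1 (SD, n = 5), followed by *Klf2* at 22.7 ± 8.38 and *Klf4* at 19.9 ± 6.94. *Klf13*, *Klf15*, *Klf7*, *Klf3* and *Klf10* followed, from 15.3 down to 9.30. *Klf6* did not overlap with *Klf2*, while from *Klf2* to *Klf10* each gene overlapped the next. *Klf11* lay at 4.19 ± 0.680 and *Klf5* at 1.04 ± 0.504, and neither overlapped the gene above it. In PE2 wild type, the first 4 places were the same, with *Klf6* at 29.9 ± 5.08 (SD, n = 4), *Klf2* at 24.5 ± 5.54, *Klf4* at 16.4 ± 6.81 and *Klf13* at 13.2 ± 2.33, and each overlapped the next. *Klf11*, at 3.88 ± 1.33, and *Klf5*, at 0.535 ± 0.174, were again the lowest, and both lay apart from the gene above them.

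**Figure D1:**
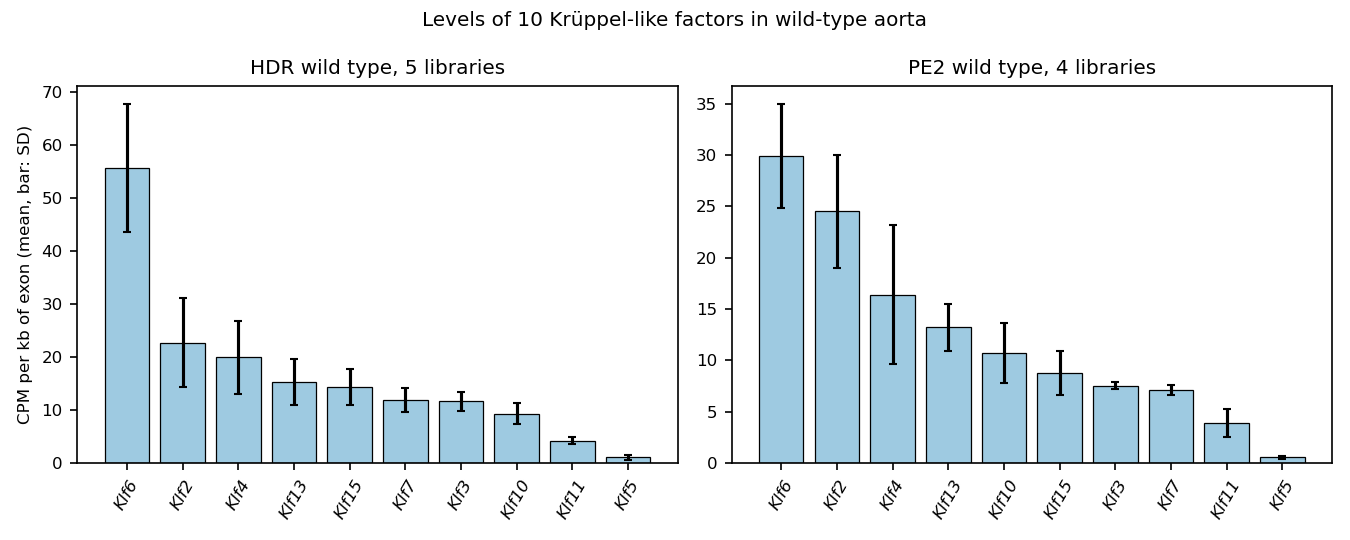
Wild-type levels of the 10 members in CPM per kb of exon, ordered from high to low, for the HDR libraries (n = 5) and the PE2 libraries (n = 4). Bars are means and error bars are SD. *Klf6* leads and *Klf5* is last in both panels.

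*Klf2*, *Klf4* and *Klf6* are the 3 members with an unadjusted p under 0.05 in edgeR when all PE2 libraries were used, and their promoters are printed for that reason. Each is the RefSeq window (GRCm38.p6) from 250 bases before to 50 bases after the gene's start, on the strand of the gene. In *Klf2* (chr8:72318812-72319111, plus strand), the capitals mark a match to the MEF2 motif. In *Klf4* (chr4:55532426-55532725, minus strand) and *Klf6* (chr13:5861239-5861538, plus strand), they mark CACGTG, the palindromic E-box.
Klf2: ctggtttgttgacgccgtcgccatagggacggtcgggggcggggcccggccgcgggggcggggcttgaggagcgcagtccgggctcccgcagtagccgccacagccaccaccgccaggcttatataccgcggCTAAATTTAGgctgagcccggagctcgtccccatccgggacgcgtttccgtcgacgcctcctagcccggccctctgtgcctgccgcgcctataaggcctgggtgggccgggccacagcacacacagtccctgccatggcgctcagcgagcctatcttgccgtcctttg
Klf4: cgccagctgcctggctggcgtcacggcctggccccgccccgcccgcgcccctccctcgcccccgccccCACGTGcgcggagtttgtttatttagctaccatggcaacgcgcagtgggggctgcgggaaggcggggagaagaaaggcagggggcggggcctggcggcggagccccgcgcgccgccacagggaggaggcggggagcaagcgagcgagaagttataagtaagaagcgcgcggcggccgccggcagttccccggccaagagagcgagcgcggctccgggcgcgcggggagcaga
Klf6: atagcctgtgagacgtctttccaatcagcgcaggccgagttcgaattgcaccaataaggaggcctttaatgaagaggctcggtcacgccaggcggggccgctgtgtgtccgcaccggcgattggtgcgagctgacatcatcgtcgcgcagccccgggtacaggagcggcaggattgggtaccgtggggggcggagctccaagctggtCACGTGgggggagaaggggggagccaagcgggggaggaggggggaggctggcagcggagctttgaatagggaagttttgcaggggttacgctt

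Promoter windows were on hand for 8 of the 10 members, without *Klf5* and *Klf10*. On both strands, the MEF2 motif was found in *Klf2* alone among the 8 and in 3.19% of all 32851 promoter windows. CACGTG was found in *Klf4*, *Klf6*, *Klf11* and *Klf15*, against 7.15% of all windows. The GC box GGGCGG, the kind of sequence that KLF and Sp proteins bind, was found in all 8, against 35.7% of all windows, and the 8 windows were 70.6% G and C on average, against 53.8%. The CArG box motif was found in none of the 8 and in 1.63% of all windows, and the lack of a match says only that these letters are not in these windows.

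*Klf2*, at chr8:72319033-72321656 on the plus strand of GRCm38, encodes the flow-induced factor of endothelium. Its level in PE2 wild type was 59.4, 36.7, 45.6 and 39.0 CPM in replicates 1 to 4. In peg/peg it was 108, 120.2, 28.8 and 93.6 CPM. The 3 peg/peg libraries other than replicate 3 lay above all 4 wild-type libraries, and replicate 3 lay below them. With all 8 libraries, the log2 fold change in edgeR's quasi-likelihood test was 0.96 (SE 0.40, unadjusted p = 0.0425, adjusted p = 0.861), with an exact two-sided permutation p of 0.171. Without replicate 3, it was 1.24 (SE 0.17, unadjusted p = 0.000109, adjusted p = 0.181), from a mean of 45.2 ± 10.2 CPM (SD, n = 4) to 107 ± 13.4 (SD, n = 3). DESeq2's Wald test on the same 7 libraries called it, with a log2 fold change of 1.25 (adjusted p = 8.93e-07), and limma-voom did not (adjusted p = 0.208). In the 6 female libraries among these 7, the log2 fold change was 1.18 (SE 0.19, adjusted p = 0.73 in edgeR).

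In the HDR experiment, *Klf2* was 44.6, 27.8, 31.8, 38.2 and 67.1 CPM in wild-type libraries 2 to 6, and 38.1, 30.9, 67.7, 34.3 and 49.3 CPM in sg/sg libraries 2 to 6. The groups overlapped nearly throughout, and the log2 fold change was 0.07 (SE 0.26, edgeR adjusted p = 1.00). Without wild-type library 3 and sg/sg library 4, the *Klf2* log2 fold change was -0.26 (unadjusted p = 0.282, adjusted p = 1.00).

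*Klf6*, at chr13:5861482-5870394 on the plus strand, encodes an early-response factor that is induced by injury and by transforming growth factor β. Its PE2 wild-type levels were 147, 124, 151 and 103 CPM, and its peg/peg levels were 249.6, 205, 116 and 273 CPM. As with *Klf2*, all peg/peg libraries except replicate 3 lay above every wild-type library. In PE2, *Klf6* had a log2 fold change of 0.68 (SE 0.26, unadjusted p = 0.0312, adjusted p = 0.861 in edgeR) with all 8 libraries. Without replicate 3, it was 0.88 (SE 0.16, unadjusted p = 0.000661, adjusted p = 0.429 in edgeR), from 131 ± 22.3 CPM (SD, n = 4) to 242 ± 34.8 (SD, n = 3). DESeq2 called *Klf6* on these 7 libraries (log2 fold change 0.89, adjusted p = 0.000767) and limma-voom did not (adjusted p = 0.452). In HDR wild type it was 179.8, 208, 248, 267 and 317.1 CPM, and in sg/sg it was 213, 251, 226, 246 and 404 CPM. The HDR groups overlapped, with sg/sg library 6 above the rest, and the log2 fold change was 0.14 (SE 0.20, adjusted p = 1.00 in edgeR).

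*Klf4*, at chr4:55527143-55532466 on the minus strand, is read in both endothelium and smooth muscle. It was 74.9, 33.4, 32.4 and 59.5 CPM in PE2 wild type and 83.6, 126, 108 and 60.7 CPM in peg/peg. Here replicate 3 was among the 3 peg/peg libraries above all wild-type libraries, and replicate 4 lay within the wild-type range. For *Klf4* it came to a log2 fold change of 0.92 (SE 0.33, unadjusted p = 0.024, adjusted p = 0.861 in edgeR; exact permutation p = 0.0571). Without replicate 3, it was 0.84 (SE 0.35, unadjusted p = 0.045, adjusted p = 0.989 in edgeR; exact permutation p = 0.114), and neither DESeq2 nor limma-voom called it on the 7 libraries (adjusted p = 0.752 and 0.99). In HDR wild type it was 51.6, 57.5, 45.7, 50.9 and 97.8 CPM, and in sg/sg 32.1, 36.0, 64.3, 67.8 and 62.4 CPM. Sg/sg libraries 2 and 3 lay below all wild-type libraries and the other 3 within their range, with a log2 fold change of -0.21 (SE 0.26, adjusted p = 1.00 in edgeR).

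**Figure D2:**
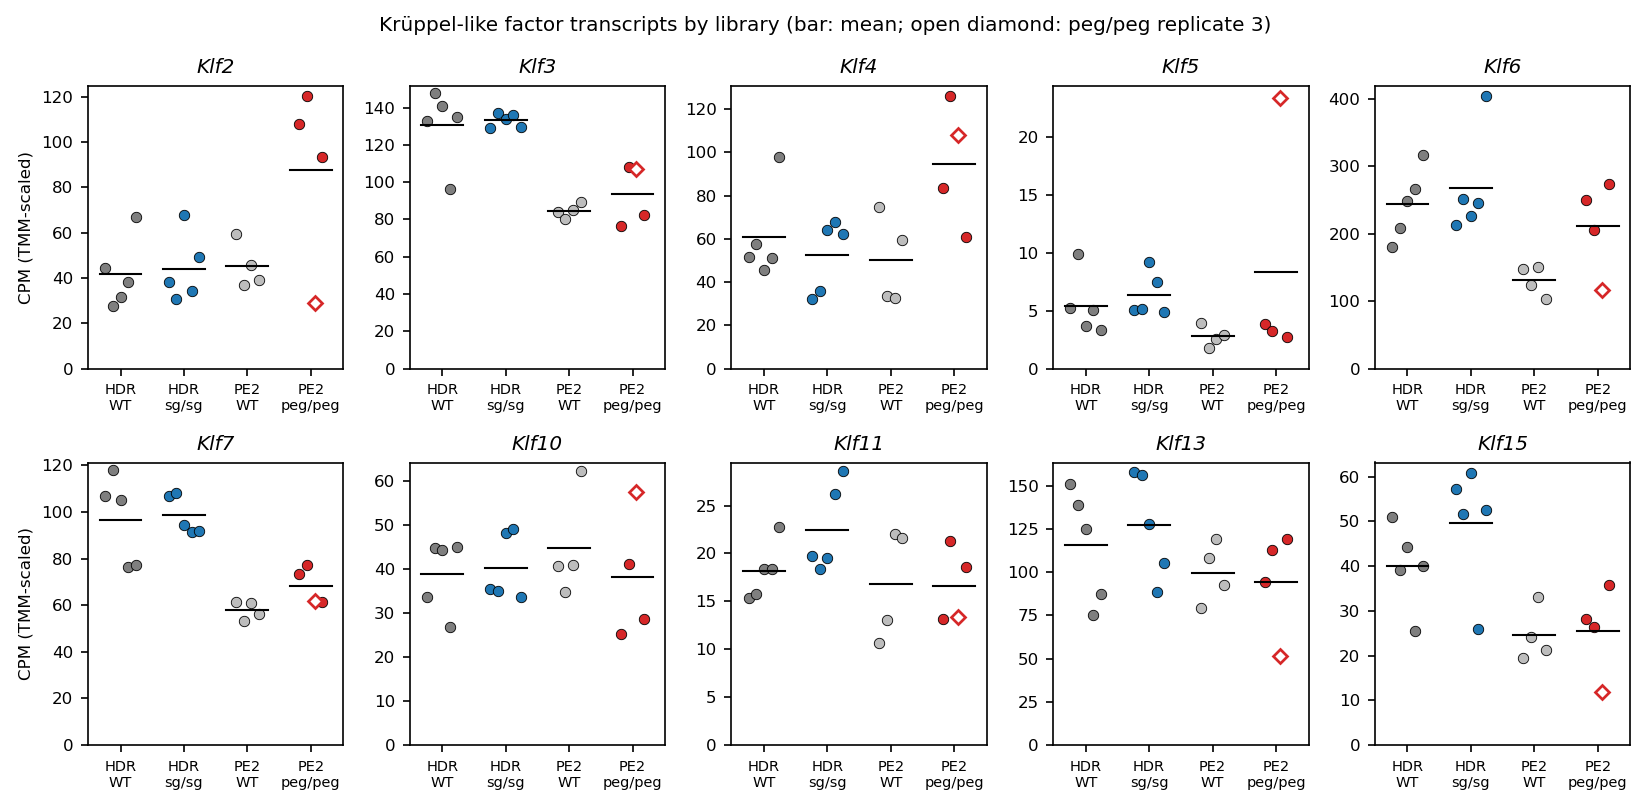
CPM of each member in every library, on linear axes that start at 0. Bars are group means, filled circles are libraries and the open diamond is the library labelled peg/peg replicate 3. For *Klf2* and *Klf6*, the 3 filled peg/peg circles lie above all PE2 wild-type circles, and for *Klf5* the open diamond lies at 23.3 CPM, above all other libraries.

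By the adjusted threshold of 0.05, edgeR called 0 of the 10 members in HDR aorta and 0 in PE2 aorta. Of all genes tested, it called 0.00609% (HDR) and 0.0061% (PE2), which was *Tspan2* alone in each case. At an unadjusted p under 0.05, 3 of 10 members were higher in peg/peg, *Klf2*, *Klf4* and *Klf6*, against 3.04% of all genes, and 0 were lower, against 1.27%. Without replicate 3, 4 of 10 were higher, with *Klf7* added, against 2.19%, and 0 were lower, against 1.91%. Of these, none passed the adjusted threshold in edgeR, which called 0.012% of all genes, or in limma-voom, which called 0.012%. DESeq2 called 2 of 10, *Klf2* and *Klf6*, against 0.492% of all genes. The peg/peg and wild-type ranges did not overlap for 0 of 10 members with all libraries, against 1.43% of genes with peg/peg higher and 1.1% with peg/peg lower. Without replicate 3, they did not overlap for *Klf2* and *Klf6*, both higher, against 2.71%, and for 0 members with peg/peg lower, against 2.51%. For 4 libraries against 3, the permutation test cannot give a p below 0.0571, and *Klf2* and *Klf6* both had that value.

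In the HDR experiment, 0 of 10 members were higher at an unadjusted p under 0.05, against 0.353% of all genes, and 0 were lower, against 1.63%. The ranges of sg/sg and wild type overlapped for all 10, against 0.122% of genes apart with sg/sg higher and 0.195% with sg/sg lower. Beside these values, 7 of 7 macrophage markers were lower in sg/sg at an unadjusted p under 0.05 (summed level 143 to 256 CPM, against 191 to 498 in wild type), with 0 called by edgeR, and 4 of 7 on the 8 libraries left without wild-type 3 and sg/sg 4. Their part in the *Klf* levels was not tested. The median log2 fold change of the members was 0.10, and that of all genes was 0.00. In PE2 the members' median was 0.19, against 0.01 for all genes, and without replicate 3 it was 0.25, against -0.01.

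**Figure D3:**
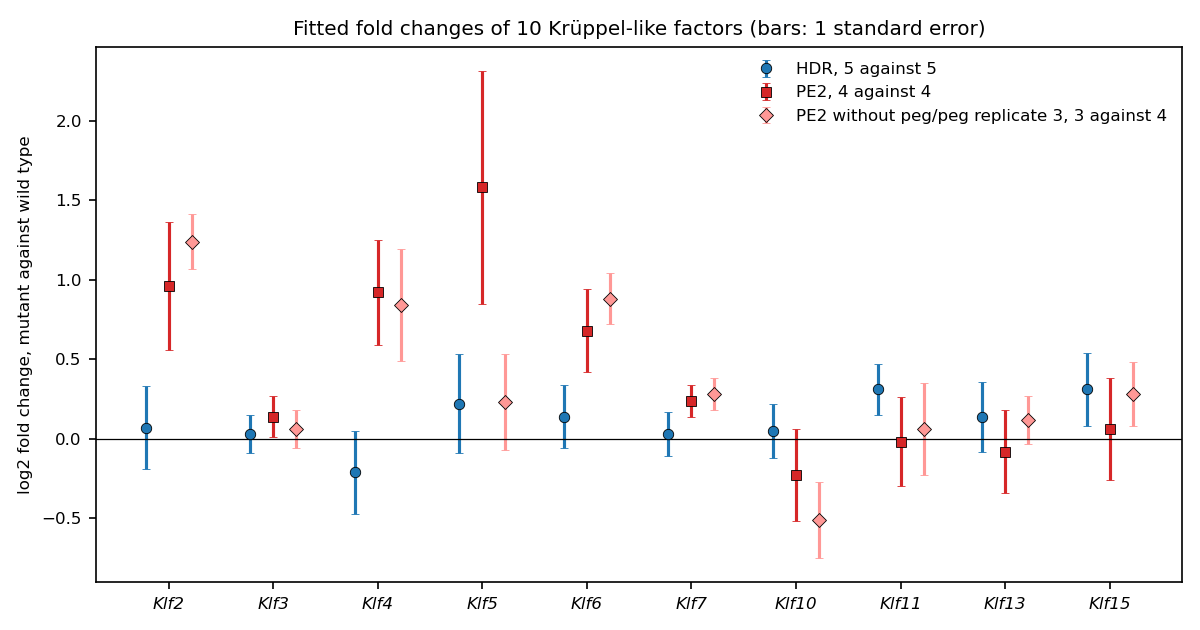
Log2 fold change of each member, mutant against wild type, in the HDR experiment, in the PE2 experiment and in the PE2 experiment without peg/peg replicate 3. Error bars are 1 standard error. Leaving out replicate 3 moved *Klf5* from 1.58 to 0.23 and *Klf2* from 0.96 to 1.24.

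The difference between experiments was tested directly as the PE2 genotype effect minus the HDR genotype effect over all 18 libraries. No member was called, and of all genes tested 0.0% were (0 of 18094). For *Klf4* the log2 difference was 1.11 (SE 0.42, unadjusted p = 0.0171, adjusted p = 0.911 in edgeR), for *Klf2* 0.87 (SE 0.48, unadjusted p = 0.0892) and for *Klf6* 0.53 (SE 0.35, unadjusted p = 0.146). Without peg/peg replicate 3, edgeR gave 1.04 for *Klf4* (SE 0.44, unadjusted p = 0.0318), 1.17 for *Klf2* (SE 0.35, unadjusted p = 0.00413) and 0.73 for *Klf6* (SE 0.29, unadjusted p = 0.024), each with an adjusted p of 1.00. On the 15 libraries left without HDR wild-type 3 and sg/sg 4 as well, *Klf2* had a log2 difference of 1.47 (SE 0.30, unadjusted p = 0.000224, adjusted p = 0.511 in edgeR), *Klf4* 1.12 (SE 0.49, unadjusted p = 0.0362) and *Klf6* 0.72 (SE 0.31, unadjusted p = 0.0331). None of these differences passed the adjusted threshold.

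In PE2, the libraries with high *Klf2* and *Klf6* were also high in immediate early genes. These are transcripts that cells make within minutes of a stimulus (a list of 14, among them *Fos*, *Egr1* and *Dusp1*). Their summed level was 643, 523, 651 and 391 CPM in PE2 wild type and 1566, 1214, 623 and 1514 CPM in peg/peg replicates 1 to 4. The 3 libraries with high *Klf2* and *Klf6* were the 3 with the highest sums. The sum of replicate 3 lay within the wild-type range. Among the 3 libraries, *Klf2* was highest in replicate 2, which had the lowest sum of them. Of the 14 genes, 10 were higher in peg/peg at an unadjusted p under 0.05 with all libraries and 13 without replicate 3, with 0 lower and 0 called by edgeR in either fit. In the HDR experiment the sum was 507 to 1106 CPM in wild type and 548 to 1172 in sg/sg, and 1 of 14 was higher. There *Klf2* did not go with the sum. It was highest in sg/sg 4 (67.7 CPM) and wild-type 6 (67.1), with sums of 882 and 769 CPM. The highest sum, 1172 CPM in sg/sg 5, went with *Klf2* at 34.3 CPM. The endothelial sum was 2777, 4052, 939 and 1710 CPM in peg/peg replicates 1 to 4 and 1814 to 2889 in wild type. Within peg/peg, this sum and *Klf2* ranked the libraries alike, from replicate 2 through 1 and 4 to 3. Replicate 4, with *Klf2* above every wild-type library, had an endothelial sum below all of them. Of the 10 endothelial genes, 0 were higher in peg/peg at an unadjusted edgeR p under 0.05 with all libraries, and 1 was lower (median log2 fold change -0.19). Without replicate 3, 0 were higher and 3 were lower (median -0.04), with 0 called in either fit. The glucocorticoid response genes (8 genes) summed to 402, 619 and 476 CPM in peg/peg replicates 1, 2 and 4. They summed to 226 CPM in replicate 3 and to 238 to 468 in wild type. At an unadjusted edgeR p under 0.05, 2 of these 8 were higher in peg/peg with all libraries and 3 without replicate 3, with 0 lower and 0 called. Cardiac muscle markers (5 genes) summed to 56.2, 131 and 87.5 CPM in peg/peg replicates 1, 2 and 4, against 14.1 in replicate 3 and 41.3 to 63.5 in wild type. Of them, 4 of the 4 tested were higher in peg/peg at an unadjusted p under 0.05 without replicate 3 (median log2 fold change 2.73). With all libraries it was 2 of 4 (median 2.39), with 0 called by edgeR in either fit. No gene of these lists was at 0 in all libraries of a group. The part of immediate early, endothelial, glucocorticoid response or cardiac muscle transcripts in the *Klf* levels was not tested.

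**Figure D4:**
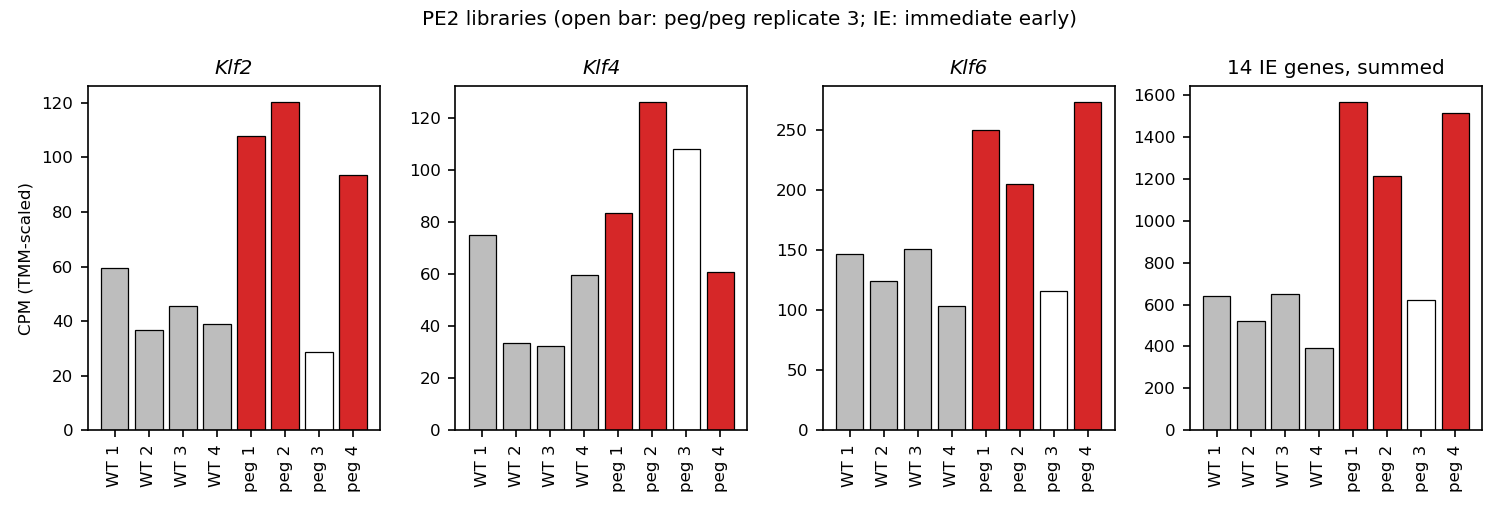
CPM of *Klf2*, *Klf4* and *Klf6* and the summed CPM of 14 immediate early (IE) genes in the 8 PE2 libraries, 1 bar a library. The open bar is peg/peg replicate 3. In replicates 1, 2 and 4 of peg/peg, *Klf2*, *Klf6* and the summed genes exceed every wild-type bar.

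*Klf5*, at chr14:99298691-99315036 on the plus strand, encodes a factor of proliferating smooth muscle that is also abundant in many epithelia. Its PE2 wild-type levels were 3.92, 1.73, 2.58 and 2.89 CPM, and its peg/peg levels were 3.85, 3.26, 23.3 and 2.74 CPM. Replicate 3 alone stood out, at 8.06 times the median of the other 7 libraries, and the remaining peg/peg libraries lay within the wild-type range. The log2 fold change was accordingly 1.58 (SE 0.73, unadjusted p = 0.0637, adjusted p = 0.861 in edgeR) with replicate 3 and 0.23 (SE 0.30, adjusted p = 0.989) without it. In HDR wild type *Klf5* was 5.18, 9.88, 3.71, 5.08 and 3.30 CPM, and in sg/sg 5.02, 5.16, 9.16, 7.43 and 4.90 CPM. The highest value of each HDR group fell in wild-type 3 and sg/sg 4, the libraries with the most urothelial transcripts. The log2 fold change was 0.22 (SE 0.31, adjusted p = 1.00 in edgeR), and 0.39 (adjusted p = 1.00) without those 2 libraries. The part of urothelial RNA in the *Klf5* level was not tested.

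**Figure D5:**
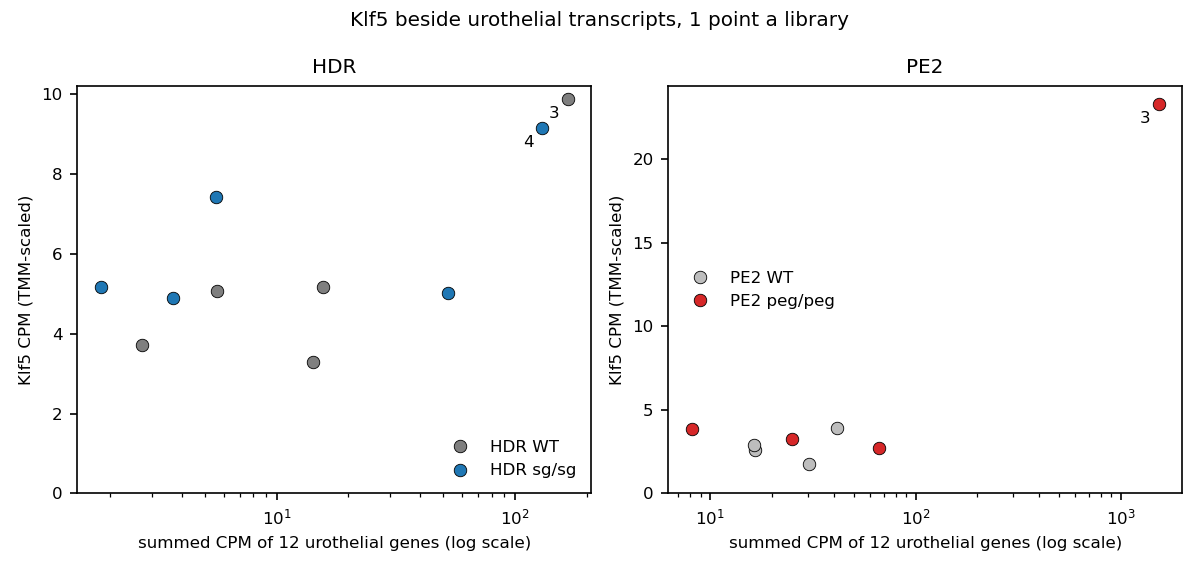
*Klf5* in CPM against the summed CPM of 12 urothelial genes (log axis), 1 point a library, for HDR and PE2. Numbered points are the libraries with a sum above 100 CPM, HDR wild-type 3 and sg/sg 4 and peg/peg replicate 3, and they carry the highest *Klf5* values, 9.88, 9.16 and 23.3 CPM.

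Among the factors tied to transforming growth factor β, *Klf10* (chr15:38291463-38300706, minus strand) and *Klf11* (chr12:24651274-24662789, plus strand) did not follow *Klf6*. *Klf10* was 40.7, 34.7, 40.8 and 62.3 CPM in PE2 wild type and 25.3, 41.0, 57.5 and 28.6 in peg/peg, so that replicates 1 and 4 lay below all wild-type libraries. Its log2 fold change was -0.23 (SE 0.29, adjusted p = 0.884 in edgeR), and -0.51 (SE 0.24, unadjusted p = 0.0666, adjusted p = 0.989) without replicate 3. In the HDR experiment *Klf10* was 26.7 to 45.0 CPM in wild type and 33.5 to 49.1 in sg/sg, with a log2 fold change of 0.05 (SE 0.17). *Klf11* had the smallest unadjusted p of the members in the HDR experiment. It was 15.4, 15.8, 18.4, 18.4 and 22.8 CPM in wild type and 19.7, 18.4, 19.5, 26.2 and 28.6 CPM in sg/sg. All 5 sg/sg libraries lay at or above the wild-type median, and 2 lay above every wild-type library. The log2 fold change was 0.31 (SE 0.16, unadjusted p = 0.0775, adjusted p = 1.00 in edgeR), with an exact permutation p of 0.103. In PE2 it was 10.7 to 22 CPM in wild type and 13.2 to 21.3 in peg/peg, with a log2 fold change of -0.02 (SE 0.28), and 0.06 (SE 0.29) without replicate 3.

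*Klf15*, at chr6:90462576-90475238 on the plus strand, encodes a glucocorticoid-induced factor of amino acid and lipid metabolism. It was 50.9, 39.1, 44.3, 25.5 and 40.1 CPM in HDR wild type and 57.2, 51.6, 60.7, 25.9 and 52.6 CPM in sg/sg. All sg/sg libraries except library 5 lay above every wild-type library, and library 5 was nearly as low as wild-type 5. The log2 fold change was 0.31 (SE 0.23, unadjusted p = 0.199, adjusted p = 1.00 in edgeR; exact permutation p = 0.333). In PE2 wild type it was 19.5, 24.2, 33.1 and 21.3 CPM, and in peg/peg 28.1, 26.3, 11.8 and 35.8 CPM. Replicate 3 was the lowest PE2 library, and the log2 fold change went from 0.06 (SE 0.32) with it to 0.28 (SE 0.20, adjusted p = 0.989 in edgeR) without it.

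The repressors *Klf3*, which recruits CtBP (chr5:64803388-64832901, plus strand), and *Klf13*, which recruits Sin3A (chr7:63886351-63938915, minus strand), differed little by genotype. *Klf3* was 96.3 to 148 CPM in HDR wild type and 129 to 137 in sg/sg, a log2 fold change of 0.03 (SE 0.12). In PE2 it was 80.1 to 89.5 CPM in wild type and 76.4 to 108 in peg/peg, a log2 fold change of 0.14 (SE 0.13) and 0.06 (SE 0.12) without replicate 3. *Klf13* was 75.0 to 151 CPM in HDR wild type and 88.5 to 158 in sg/sg (log2 fold change 0.14, SE 0.22), and in PE2 79.1 to 119 in wild type and 51.6 to 119 in peg/peg. Its PE2 log2 fold change was -0.08 (SE 0.26), and 0.12 (SE 0.15) without replicate 3, in which *Klf13* stood at 0.476 times the median of the other 7 libraries. *Klf3*, *Klf7* and *Klf13* overlap annotated genes on the opposite strand (1, 2 and 2 genes), and since the strand setting of the counting is not given in the sources used here, reads of those genes cannot be told from theirs.

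*Klf7* (chr1:64029447-64122282, minus strand), a factor best known from neurons, is the member that a list of candidate off-target sites names. A biochemical screen of cleaved genomic DNA placed a site of 23 bases with 5 mismatches at chr1:64008835-64008857 (minus strand), which lies 20.6 kb beyond the 3′ end of the gene, for both the guide RNA and the pegRNA. *Klf7* was 107, 118, 105, 76.2 and 77.2 CPM in HDR wild type and 107, 108, 94.6, 91.6 and 91.9 in sg/sg. The sg/sg libraries lay within the wild-type range, with a log2 fold change of 0.03 (SE 0.14, adjusted p = 1.00 in edgeR). In PE2 it was 61.3, 53.2, 61.1 and 56.4 CPM in wild type and 73.5, 77.3, 61.6 and 61.2 in peg/peg. Replicates 1 and 2 lay well above wild type and the other two next to its upper end. The log2 fold change was 0.24 (SE 0.10, unadjusted p = 0.050, adjusted p = 0.861 in edgeR), and 0.28 (SE 0.10, unadjusted p = 0.0289, adjusted p = 0.989) without replicate 3. In the edited groups, 0 of 5 sg/sg and 0 of 4 peg/peg libraries fell below the wild-type range of *Klf7*. Whether the candidate site was edited in these mice was not tested here, so these levels do not show what an edit there would do.

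The 7 other *Klf* genes were read as a comparison. In HDR aorta 4 of them were tested, *Klf8*, *Klf9*, *Klf12* and *Klf16*, and in PE2 aorta the same 4, while without replicate 3 *Klf14* passed the filter too. None had an unadjusted p under 0.05. *Klf9*, a glucocorticoid-induced member, was 275 ± 59.0 CPM (SD, n = 5) in HDR wild type and 327 ± 87.8 (SD, n = 5) in sg/sg, and 147 ± 28.9 (SD, n = 4) in PE2 wild type and 164 ± 37.4 (SD, n = 4) in peg/peg, or 175 ± 36.9 (SD, n = 3) without replicate 3. *Klf12* was 34.0 ± 10.9 and 38.0 ± 10.8 CPM in the HDR groups and 13.6 ± 1.83 and 13.0 ± 6.92 in the PE2 groups, with replicate 3 at 3.18 and the other 3 peg/peg libraries at 16.3 ± 2.67 (SD). *Klf8* and *Klf16* stayed between 3.49 and 14 CPM in all 18 libraries. *Klf1*, the erythroid founder of the family, had 5 and 8 counts in the HDR groups and 33 and 18 in the PE2 groups, with 13 of the 18 outside replicate 3. *Klf14* had 10, 7, 27 and 43 counts in the same order, with 39 of the 43 outside replicate 3. *Klf17* had 1 and 2 counts in HDR wild type and sg/sg and 0 in both PE2 groups.

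Of the 9 related *Sp* genes, 5 were tested in HDR and 6 in PE2 aorta, and none had an unadjusted p under 0.05 in either direction, with or without replicate 3. The 18 regulators and partners of KLFs, such as the *Map2k5*, *Mapk7* and *Mef2* genes upstream and *Ctbp1* and *Sin3a* downstream, were all tested, and 0 passed in the HDR or the PE2 experiment. Without replicate 3, *Crebbp*, which encodes a histone acetyltransferase, was higher in peg/peg, with a log2 fold change of 0.25 (SE 0.09, unadjusted p = 0.0238, adjusted p = 0.989 in edgeR). Of 16 genes reported as KLF targets, 15 were tested in HDR and 16 in PE2 aorta, and 0 passed with all libraries. *Nos3*, the endothelial nitric oxide synthase and a target of KLF2, was 91.8, 148, 16.9 and 69.9 CPM in peg/peg replicates 1 to 4. It was 78.3 to 119.5 CPM in PE2 wild type, a comparison added after its values were seen. Replicate 4, with *Klf2* above every PE2 wild-type library, thus had *Nos3* below all of them. In HDR, *Nos3* was 51.3 to 88.0 CPM in wild type and 51.7 to 97.1 in sg/sg. The relation of *Nos3* to *Klf2* was not tested. The median log2 fold change of the target list was -0.05 in HDR aorta, -0.07 in PE2 aorta and -0.01 in PE2 aorta without replicate 3.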

How the data were processed

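Aortic RNA was sequenced in 5 wild-type and 5 sg/sg (HDR) and 4 wild-type and 4 peg/peg (PE2) mice, grouped by the sample labels. The authors deposited, per experiment, raw counts per gene symbol, made with fastp, STAR 2.7.0f (GRCm38, Gencode M22) and featureCounts of Subread 1.6.4. Their second deposited table per experiment is a normalized signal, in which the counts of a library are scaled by its DESeq2 1.22.1 size factor (0.883 to 1.17 in HDR, 0.94 to 1.12 in PE2), and it served here only to check that. The labels and the methods differ on kit and read length, and the strand setting is not given in the sources used here.

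From the counts, edgeR 4.0.16 (R 4.3.3; TMM, filterByExpr, glmQLFit, glmQLFTest) was run within each experiment, with Benjamini-Hochberg adjustment over all genes tested (16423 in HDR, 16401 in PE2, 16668 in PE2 without peg/peg replicate 3) and a threshold of 0.05. CPM are TMM-scaled. Exact two-sided permutation tests used mean log2(CPM + 0.5), and their smallest p is 0.00794 for 5 against 5, 0.0286 for 4 against 4 and 0.0571 for 4 against 3. DESeq2 1.42.0 and limma 3.58.1 were alternatives, and edgeR was tested on simulated counts. Exon lengths and positions came from Gencode M21, 1 release before that of the authors, and promoters from RefSeq. No pair of libraries within a group differed by less than sampling noise (chi-square per degree of freedom 17.2 or more). Pairs across groups were not compared. The labels do not say how mice were related, and the p-values take the libraries as independent.

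The members and gene lists were chosen with earlier results of these data known. The urothelial and elastic fibre lists, and the fits without the libraries that stood apart, were added after their values were seen. Named are all members, all other *Klf* genes, and from the *Sp*, regulator and target lists up to 4 genes per experiment with the smallest unadjusted p under 0.05. *Nos3* was named outside that rule. One result from the target list is not reported here.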

Additional observations from a re-analysis of the deposited data

Results flagged for a closer look

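Dixon's ratio was computed for each member in each group, to find a library that stands apart from its group. Of 40 combinations of member and group, 5 held such a library, and chance gives about 1 in 20. *Klf5* in the library labelled peg/peg replicate 3 was 23.3 CPM (ratio 0.946), against 2.74 to 3.85 in the other 3. *Klf5* in HDR wild-type library 3 was 9.88 CPM (ratio 0.714), against 3.30 to 5.18. *Klf4* in HDR wild-type library 6 was 97.8 CPM (ratio 0.775), against 45.7 to 57.5. *Klf6* in sg/sg library 6 was 404 CPM (ratio 0.802), against 213 to 251. *Klf15* in sg/sg library 5 was 25.9 CPM (ratio 0.737), against 51.6 to 60.7. The part of other tissue or of sex in these values was not tested.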

How the results depend on the processing

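The HDR comparison called 0 members in every setting listed for it, and the difference between experiments did so too. With all 8 PE2 libraries 0 members were called in every setting. After peg/peg replicate 3 was left out, DESeq2 called 2 (*Klf2* and *Klf6*), limma-voom 0, and edgeR 1 when wild-type replicate 1 was left out as well (*Klf2*, log2 fold change 1.40, adjusted p = 0.0441) and 0 when any of the other 6 was. In those 7 fits *Klf2* ran from 1.15 to 1.40 and *Klf6* from 0.78 to 1.00. The number of members higher in peg/peg at an unadjusted p under 0.05, 3 with all libraries, was 1 with sex as a covariate or with female libraries alone, and 0 to 4 when 1 library was left out (0 without wild-type replicate 2, 1 when peg/peg 1, peg/peg 2, wild-type 3 or wild-type 4 was the one, and 4 without peg/peg replicate 3). It was 0 with the replicate number as a block. Same-numbered PE2 libraries did not deviate together from their group means (correlations 0.0163, -0.232, -0.0567 and -0.29). The peg/peg mean includes replicate 3, which stood apart, so these correlations cannot say whether the number pairs mice. No replicate block was fitted in HDR. Its columns carry the numbers 2 to 6 in both genotypes, but these are not the numbers of the labelled mice. Whether they pair mice was not tested. In HDR the count of members higher ran from 0 to 1 when 1 library was left out, and the 1 was *Klf5* without wild-type library 3, *Klf11* without wild-type library 6 or sg/sg library 3, and *Klf15* without sg/sg library 5. The count lower in peg/peg was 1 instead of 0 without replicate 3 and either wild-type replicate 2 or peg/peg replicate 2.

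Log2 fold changes near 0 changed sign, with no call in any case. With 1 library left out, the HDR values ran from -0.14 to 0.31 for *Klf2*, -0.07 to 0.07 for *Klf3*, -0.32 to 0.03 for *Klf4*, -0.05 to 0.25 for *Klf6*, -0.04 to 0.11 for *Klf7* and -0.06 to 0.11 for *Klf10*, and the PE2 values from -0.19 to 0.13 for *Klf11*, -0.22 to 0.12 for *Klf13* and -0.17 to 0.28 for *Klf15*. Without the 2 HDR libraries rich in urothelial transcripts *Klf2* was -0.26. In PE2, *Klf11* was 0.12 with sex as a covariate or females alone, 0.02 with the block, 0.08 in DESeq2 and 0.09 in limma-voom without replicate 3, and 0.23, 0.21, 0.23 and 0.02 when wild-type 3, wild-type 4, peg/peg 1 or peg/peg 4 was left out with it. *Klf13* was 0.13 in both other tools without replicate 3, and 0.02, 0.16, 0.22, 0.09, 0.21, 0.10 and 0.05 when wild-type 1, 2, 3, 4 or peg/peg 1, 2, 4 was left out with it. *Klf3* was -0.09 without peg/peg 2 and 3. *Klf15* was -0.05 in limma-voom and -0.01 with sex as a covariate or females alone. On the 15 libraries that remain without all 3 that stood apart, the difference between experiments was -0.02 for *Klf3*, -0.17 for *Klf5* and 0.05 for *Klf15*. The cause of these shifts was not tested. DESeq2 gave no p for *Klf5* with all 8 libraries. *Klf5* had the lowest depth of the members, 458 and 1454 counts in the PE2 groups and 577 and 612 in the HDR groups.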

Other observations

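In the HDR experiment, *Klf13* split the libraries regardless of genotype. It was 75.0 and 87.5 CPM in wild-type libraries 5 and 6 and 88.5 and 105 in sg/sg libraries 5 and 6, against 125 to 151 and 128 to 158 in the others. *Klf7* was also lowest in these 4 libraries, at 76.2 to 91.9 CPM against 94.6 to 118, and so was *Klf12*, at 20.7 to 29.4 against 32.4 to 49.9. The same 4 libraries held *Xist* at 0.761 to 1.82 CPM, against 1119.6 to 1578 in the other 6, and *Uty* at 58.8 to 61.7 CPM, against 0.0. Their *Eln* level was 1763 to 2915 CPM, against 429.6 to 806. The labels give 2 males per genotype but do not tie a column to a mouse, so no comparison by sex was made, and the part of sex was not tested. In PE2, the library of the labelled male, wild-type replicate 4, held *Klf13* at 92.3 and *Klf7* at 56.4 CPM, within the range of the other wild-type libraries.

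The library labelled peg/peg replicate 3 lay outside the range of the other 7 PE2 libraries for 4 of the 10 members, above for *Klf5* and below for *Klf2*, *Klf13* and *Klf15*, and below for *Klf8*, *Klf12* and *Klf16* among the other *Klf* genes. *Klf12* was 0.219 times the median of the other 7.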
